A study of Mus musculus with 8 samples.

Results

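The genes described here are the nuclear genes of oxidative phosphorylation, grouped by the respiratory complex their products belong to. They were chosen by symbol, with no measured value in the rule: every symbol starting with Nduf, Uqcr or Atp5, every Cox4 to Cox8 symbol, and Sdha, Sdhb, Sdhc, Sdhd and Cyc1. This gave 93 of the 24060 rows of the deposited gene table. Of these, 36 were placed in complex I, 4 in complex II, 9 in complex III, 20 in complex IV and 15 in complex V. The other 9 were the 7 complex I assembly factors Ndufaf1 to Ndufaf7, Atp5sl, also placed in complex I assembly, and the ATP synthase relative Atp5s. Ndufa4 and its paralogue Ndufa4l2 were counted with complex IV, since Ndufa4 is now known as a cytochrome c oxidase subunit in spite of its name.

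The samples were mouse dorsal root ganglia (DRG), which hold the cell bodies of sensory neurons, wrapped in glia, next to the spinal cord. The injury group held L4 to L6 ganglia of the side whose sciatic nerve had been crushed 24 h earlier (4 libraries), and the naive group held ganglia of the uncrushed side of the same mice (4 libraries). Each repeat pooled 2 mice. The naive ganglia are therefore not those of unoperated animals, all mice in the study carried a crush, and the sources used here give no strain, sex or age. The ganglia were labelled as dissociated. Transcript ends were sequenced with the QuantSeq 3′ REV kit, which primes on the poly(A) tail and yields a tag near the end of each mRNA, so the level of a gene is its tag count per library size in CPM, scaled by the trimmed mean of M-values (TMM) and not divided by length.

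Oxidative phosphorylation makes most of the ATP of a neuron. Complexes I and II feed electrons from NADH and succinate to ubiquinone, complex III passes them to cytochrome c, complex IV hands them to oxygen, and complex V (ATP synthase) uses the proton gradient that complexes I, III and IV build up. Most subunits are encoded in the nucleus and imported, while a few core subunits of complexes I, III, IV and V are encoded in mitochondrial DNA. The mitochondrially encoded subunits were not analysed here. Sensory neurons keep a long axon supplied with mitochondria made largely in the cell body, which is why these transcripts are of interest in the DRG.

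Library totals ranged from 17116076 to 22432122 counts in injury libraries and from 15422482 to 29368107 in naive libraries. A count of 0 in a library allows a level of up to 0.101 to 0.188 CPM, at 3 counts, which covers counting error only. The crush was evident in Atf3, an injury-induced transcription factor, which averaged 321 ± 34.2 CPM in injury libraries and 58.8 ± 11.7 CPM in naive libraries (SD, n = 4 each) and was higher in all 4 injury libraries than in any naive library. Naive replicate 1 stood apart from the other libraries on the second principal component (46.6, against -21.1 to 11.3 for the other libraries). The counts of OXPHOS calls and the tests of Cox5a, Esrrg and Tomm70a are given with and without it. The complex sums and most values of single genes are given only with it. Markers fitted the labelled tissue: summed neuron markers lay at 15334 to 17847 CPM in injury libraries and 14312 to 16235 CPM in naive libraries, above the sum of any other cell type's markers.

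No nuclear OXPHOS gene passed the main test for a change after crush, a test that did not pair the sides of the same mice. Among 13639 genes tested with edgeR's quasi-likelihood test and Benjamini-Hochberg adjustment, 1717 (12.6%) passed adjusted p under 0.05, with 1108 (8.12%) higher and 609 (4.47%) lower after injury. Of the 93 OXPHOS genes, 87 had enough counts to be tested, and 0 were called higher and 0 lower. At an unadjusted p under 0.05 there were 8 of 87, 3 higher and 5 lower, against 24.6% of all genes tested. With 2 other tools the counts were small: DESeq2 called 2 higher (Cox5a, Ndufa4) and 2 lower (Ndufaf6, Ndufb3) against 14.9% of all genes, and limma-voom called 1 higher (Cox5a) and 1 lower (Ndufb3) against 12.7%. Because each repeat held both sides of the same mice, the fit was also made with the repeat as a block, and it called 2 higher (Cox5a, Ndufa4) and 1 lower (Ndufb3) against 14.8% of all genes. Without naive replicate 1, the unblocked fit called 1 higher (Cox5a) and 0 lower, and without injury replicate 1 it likewise called Cox5a alone.

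The 87 tested genes had a median log2 fold change (injury over naive) of -0.02, with 37 above and 50 below 0 and a range of -0.81 to 0.49, and the median over all genes tested was -0.00. The ends of that range were genes at low levels, Cox6b2 at 0.57-fold (95% interval 0.24 to 1.33) and Cox8a at 1.41-fold (95% interval 0.57 to 3.46). For 61 of the 87 (70.1%), the 95% interval of the fold change lay within 1.2-fold in either direction, against 16.1% of all genes tested. Precision follows abundance, so the same was counted among genes averaging at least 100 CPM. There the interval lay within 1.2-fold for 61 of 66 OXPHOS genes (92.4%), and within 1.5-fold for all 66. Among all 2115 genes of that abundance the interval lay within 1.2-fold for 1242 (58.7%), and 470 (22.2%) were called changed. The 5 OXPHOS genes whose interval passed the bound were Cox5a, Ndufa4, Ndufa2 and Cyc1, at the upper end, and Ndufb3, at the lower end.

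**Figure D1:**
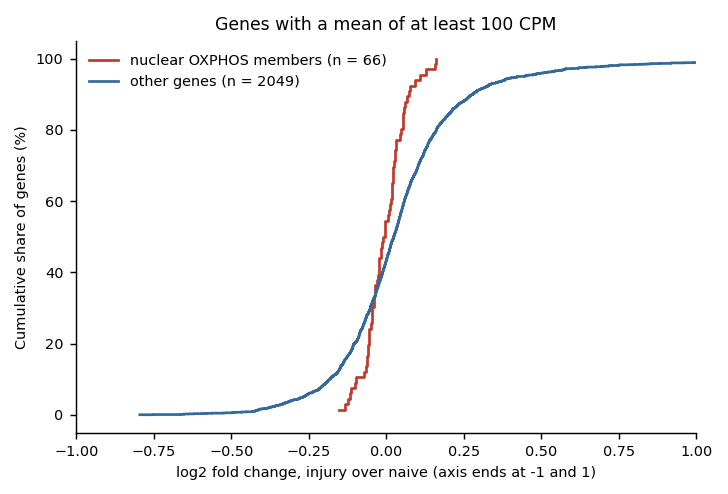
Cumulative share (%) of genes by log2 fold change, injury over naive, for genes averaging at least 100 CPM; the red line is the 66 nuclear OXPHOS genes and the blue line the other 2049 genes, and the x axis ends at -1 and 1. All 66 OXPHOS genes lie between -0.15 and 0.16, while 75.7% of the other genes lie within 0.2 of 0.

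The cumulative plot of fold changes shows that spread. Log2 fold changes of the 66 abundant OXPHOS genes ran from -0.15 to 0.16 with an SD of 0.066 across genes, and those of the other 2049 genes had an SD of 0.281. The median size of the change, regardless of sign, was 0.046 for the OXPHOS genes and 0.103 for the other genes. These are descriptions of the 2 sets of genes, with no test of the difference between them.

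Summed over each complex, transcript levels stood at 0.97 to 1.02 of the naive level, and the injury and naive libraries overlapped for every complex. Complex I transcripts summed to 6981 ± 171 CPM in injury libraries and 7055 ± 179 CPM in naive libraries (SD, n = 4 each), a ratio of 0.990. Complex II summed to 738 ± 21.9 CPM after injury against 757 ± 10.1 CPM in naive libraries, and complex III to 2446 ± 55.6 CPM after injury against 2499 ± 55.8 CPM in naive libraries. Complex IV had the only sum that was higher on average after injury, at 5050 ± 83.7 CPM in injury libraries and 4932 ± 91.5 CPM in naive libraries, a ratio of 1.02. Complex V summed to 6211 ± 149 CPM in injury libraries and 6277 ± 155 CPM in naive libraries. Libraries of the same number were taken to come from the same mice, which gave 4 pairs. Within these, the sum of complex I was lower after injury in 4 of 4 and that of complex III in 4 of 4. That of complex IV was higher after injury in 4 of 4. The sum of complex V was lower after injury in 3 of 4 pairs and that of complex II in 2 of 4. A single gene held most of the difference in mean sum for complexes I and IV. Ndufb3 of complex I averaged 588 CPM in injury libraries and 655 CPM in naive libraries. Cox5a of complex IV averaged 738 CPM in injury libraries and 660 CPM in naive libraries. The pair counts of these complexes therefore do not show a shift shared by their genes. All 84 subunit genes together made up 2.14% of the scaled counts after injury and 2.15% in naive libraries.

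**Figure D2:**
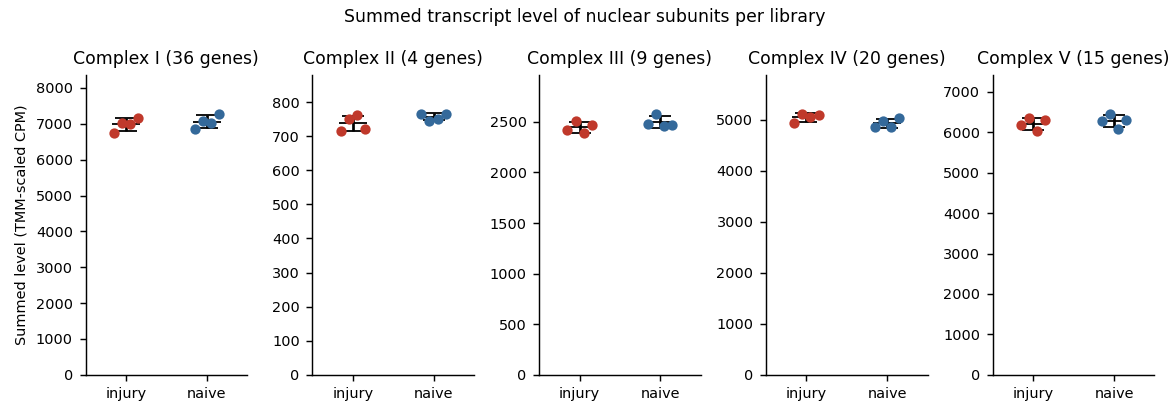
Summed TMM-scaled CPM of the nuclear subunit genes of each complex, 1 point per library, injury left and naive right, with the mean and SD of 4 libraries as bars; each y axis starts at 0 and has its own scale. The points of the 2 groups overlap in all 5 complexes.

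The direction of the complex IV sum, and whether the groups overlap, rest on the scaling. Without TMM, with library totals alone, the all-gene median of the log2 fold change moved to -0.06 and the share of calls that were higher fell to 47%, against 64.5% with TMM. Complex I then stood at 0.953 of the naive level, complex II at 0.939 and complex III at 0.943, with no overlap between the groups. Complex V stood at 0.953 with the groups still overlapping, complex IV turned to 0.987, also overlapping and lower after injury in 4 of 4 pairs, and all subunits together stood at 0.959 without overlap. Under that scaling, 0 of 87 tested OXPHOS genes were called higher and 4 lower (Ndufaf6, Ndufb3, Uqcr11, Uqcrfs1). Of all 13639 genes tested, 888 were called higher and 1001 lower. All these levels are relative to the other counts of a library. In dissociated ganglia of mixed cells, a lower level can come from fewer cells of a type or from less of a transcript per cell. These cannot be told apart.

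The genes with the smallest p-values lay in complexes I, III and IV, and among the assembly factors. The stretches upstream of Cox5a, which had the smallest p among genes with higher levels after injury, and of Ndufb3, the abundant gene with the smallest p among those with lower levels, are printed to show the promoters of opposite cases, and that of Cox6a1 because it holds motifs typical of respiratory genes. Each is the 250 bases before the RefSeq gene start in GRCm38.p6, 5′ to 3′ on the gene's strand, at chr9:57520982-57521231 (+ strand, Cox5a), chr1:58586147-58586396 (+ strand, Ndufb3) and chr5:115348959-115349208 (- strand, Cox6a1). Capitals mark matches, on either strand, to the core motifs of NRF1 (GCGCATGC), of ETS factors such as GABP (CCGGAAG) and of YY1 (AAGATGGC), factors known to act on many respiratory genes.
Cox5a: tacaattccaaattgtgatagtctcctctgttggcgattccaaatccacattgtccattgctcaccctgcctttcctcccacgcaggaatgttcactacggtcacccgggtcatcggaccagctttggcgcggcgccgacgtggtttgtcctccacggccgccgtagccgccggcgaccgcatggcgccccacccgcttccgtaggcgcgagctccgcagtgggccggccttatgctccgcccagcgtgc
Ndufb3: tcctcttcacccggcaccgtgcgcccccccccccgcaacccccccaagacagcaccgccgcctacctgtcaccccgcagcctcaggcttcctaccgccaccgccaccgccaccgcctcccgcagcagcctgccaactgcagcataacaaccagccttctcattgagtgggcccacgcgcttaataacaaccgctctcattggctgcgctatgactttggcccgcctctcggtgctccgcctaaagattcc
Cox6a1: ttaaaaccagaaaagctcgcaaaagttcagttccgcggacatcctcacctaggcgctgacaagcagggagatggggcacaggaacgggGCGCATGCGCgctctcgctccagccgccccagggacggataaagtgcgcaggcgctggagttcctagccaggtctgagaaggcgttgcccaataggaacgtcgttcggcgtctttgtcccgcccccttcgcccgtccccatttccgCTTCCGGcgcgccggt
The Cox6a1 stretch holds a pair of NRF1 matches, which overlap on opposite strands, and 1 ETS match, and none of the 3 motifs is spelled in those of Cox5a and Ndufb3, which says only that these letters are not in this window.

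RefSeq promoters of the full window (250 bases before to 50 after the gene start) were matched to 76 of the 93 genes, 3 of them by synonym, giving 82 promoters. The NRF1 letters occurred in 12 of the 82 (14.6%), against 2.71% of the 32851 promoters in the table. ETS letters occurred in 17 (20.7%), against 8.86%, and YY1 letters in 12 (14.6%), against 2.75%. The 12 genes with NRF1 letters included Cox6a1, Ndufaf4, Sdhb, Uqcr11 and the 3 ATP synthase genes Atp5g2, Atp5k and Atp5l, and their log2 fold changes had a median of 0.01 with a range of -0.12 to 0.25. Genes without NRF1 letters had a median log2 fold change of -0.02. For ETS letters the medians were 0.02 with and -0.02 without, and for YY1 letters 0.01 with and -0.03 without. None of the 87 tested genes, with or without these letters, was called changed in the unblocked edgeR fit, so the calls say nothing about the motifs.

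Complex I takes electrons from NADH through a chain of iron-sulfur clusters in its matrix arm, and its membrane arm pumps protons. Of its 36 nuclear genes 35 were tested, 16 with a positive and 19 with a negative log2 fold change, and the unblocked edgeR fit called none. The log2 fold changes of the 7 core subunits of the matrix arm in the selection ran from -0.10 to 0.11. Ndufv1, which binds NADH and the flavin, averaged 109 ± 2.58 CPM in injury libraries and 113 ± 6.35 CPM in naive libraries. Its groups overlapped. Ndufs8, at the upper end of the range, averaged 60.2 ± 4.50 CPM after injury and 55.8 ± 5.57 CPM in naive libraries.

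Ndufb3, an accessory subunit of the membrane arm, was the complex I gene with the highest tag level and also the one with the smallest p. It is a protein-coding gene on chromosome 1 (58586384 to 58595964, + strand, GRCm38). Its levels were 536, 597, 633 and 588 CPM in injury replicates 1 to 4 and 628, 653, 650.2 and 688 CPM in naive replicates 1 to 4. Injury replicate 3 lay above naive replicate 1, so the groups overlapped by that pair. The fold change was 0.90 (95% interval 0.83 to 0.97), log2 -0.15 ± 0.06 (SE), with an edgeR adjusted p of 0.0712. With the repeat as a block the adjusted p was 0.0290, or 0.0893 when both libraries numbered 1 were also left out. Over the 17 alternatives the adjusted p ranged from 0.00869 to 0.194, with 6 calls. Among the fits that left out 1 library it was called once, without injury replicate 3 (0.0173).

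Among the other accessory subunits of complex I, Ndufab1 and Ndufb11 had log2 fold changes of 0.25 and -0.18 at levels of a few CPM or less, with SEs of 0.34 and 0.67. Ndufa8 averaged 152 ± 11.2 CPM in injury libraries and 164 ± 2.98 CPM in naive libraries, the next smallest p in the complex (adjusted p 0.305 by edgeR). Ndufa2 averaged 268 ± 38.0 CPM after injury and 245 ± 26.6 CPM in naive libraries, with a spread set by injury replicate 4 at 322 CPM. Ndufb8 averaged 485 ± 26.5 CPM in injury libraries and 494 ± 13.3 CPM in naive libraries. Ndufa2, Ndufa8, Ndufab1, Ndufb8, Ndufb11, Ndufs8 and Ndufv1 were chosen as examples after their values were seen.

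**Figure D3:**
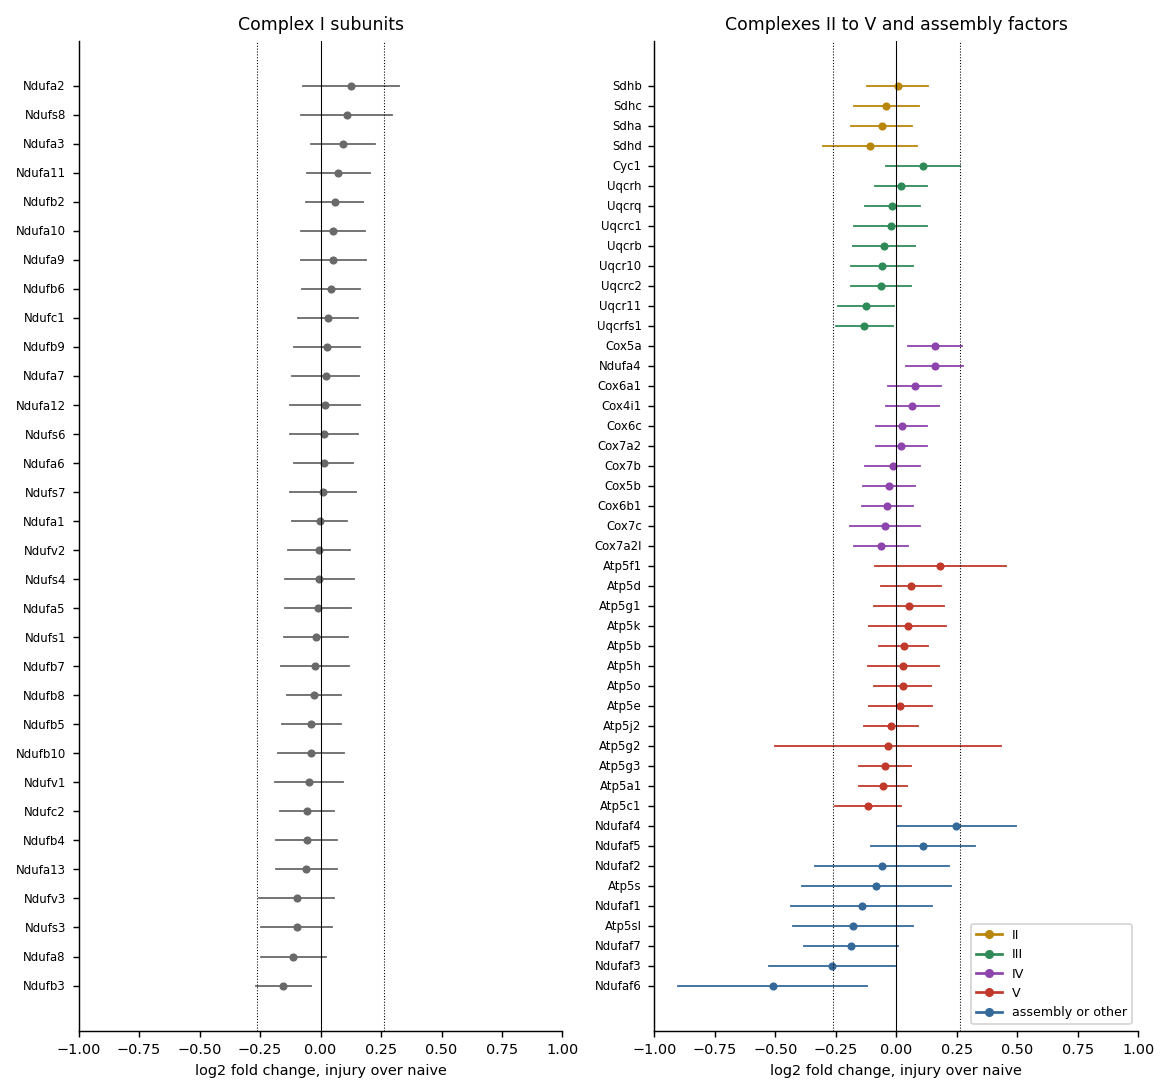
Log2 fold change, injury over naive, with 95% interval, for tested members averaging at least 5 CPM, complex I left and the other groups right; dotted lines mark 1.2-fold in either direction. The intervals of most subunits lie within the dotted lines, and the widest among subunits is that of Atp5g2. Assembly factors and Atp5s (blue, bottom right) spread more widely.

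Complex II, succinate dehydrogenase, is encoded by 4 nuclear genes and links the tricarboxylic acid cycle to the chain. All 4 were tested, 1 with a positive and 3 with a negative log2 fold change, none called by edgeR, and the interval lay within 1.2-fold for 3 of them. Sdha, the flavoprotein that oxidises succinate, had 179.6, 177, 181 and 169 CPM in injury libraries and 196, 184, 179.8 and 178 CPM in naive libraries. Sdhb, the iron-sulfur subunit, averaged 285 ± 8.66 CPM in injury libraries and 284 ± 22.3 CPM in naive libraries. Sdhc, a membrane anchor, averaged 184 ± 9.39 CPM in injury libraries and 189 ± 11.9 CPM in naive libraries. The levels of these 3 subunits overlapped between the groups. Sdhd, the other membrane anchor, had 74.4, 85.4, 110.5 and 99.4 CPM after injury and 102, 102, 98.2 and 96.0 CPM in naive libraries, a fold change of 0.93 (95% interval 0.81 to 1.06). Its injury libraries spread more widely than its naive libraries, from below to above all 4 of them.

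Complex III moves electrons from ubiquinol to cytochrome c. Its 9 nuclear genes were all tested, 2 with a positive and 7 with a negative log2 fold change, and edgeR called none. Uqcrfs1, the Rieske iron-sulfur protein of the complex (chromosome 13, 30540308 to 30545362, - strand), had 253, 269, 244 and 256 CPM in injury libraries and 297, 275, 277 and 269.9 CPM in naive libraries. All 4 injury libraries lay below all 4 naive libraries, though the highest injury and lowest naive values nearly met. The fold change was 0.91 (95% interval 0.84 to 0.99), with an edgeR adjusted p of 0.145. Uqcr11, a small subunit (chromosome 10, 80402997 to 80406830, - strand; named after its values were seen), had 213, 219, 212 and 212 CPM in injury libraries and 227, 241, 231 and 235 CPM in naive libraries. Here too the groups did not overlap, the fold change was 0.92 (95% interval 0.85 to 0.99), and the edgeR adjusted p was 0.164. Both were called lower in 1 of 17 alternatives, that with library totals.

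Cyc1, the cytochrome c1 that hands the electron on, went the other way from Uqcrfs1. It had 99.7, 108, 105 and 103 CPM in injury libraries and 85.1, 98.5, 96.7 and 105 CPM in naive libraries, overlapping, with a fold change of 1.08 (95% interval 0.97 to 1.2) and an edgeR adjusted p of 0.402. Uqcrh, the acidic hinge protein and the complex III gene with the highest tag level, averaged 867 ± 39.4 CPM in injury libraries and 855 ± 43.8 CPM in naive libraries. The difference was smaller than the SD of either group.

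Complex IV, cytochrome c oxidase, reduces oxygen; its catalytic core is mitochondrially encoded and its nuclear subunits surround that core. Of its 20 genes 15 were tested, 7 with a positive and 8 with a negative log2 fold change, and the unblocked edgeR fit called none. Cox5a, a subunit on the matrix side (chromosome 9, 57521274 to 57532426, + strand), had the smallest p of all 87 genes. Its levels were 672, 742, 745 and 793 CPM in injury replicates 1 to 4 and 675, 665, 662 and 637 CPM in naive replicates 1 to 4. Only injury replicate 1 lay among the naive values. The fold change was 1.12 (95% interval 1.04 to 1.21), log2 0.16 ± 0.05 (SE), with an edgeR adjusted p of 0.0509. It was called in 7 of 17 alternatives, with adjusted p from 0.00296 to 0.198: 0.0360 with the repeat block, 0.0413 without naive replicate 1 and 0.00965 without injury replicate 1. Of the 50-base windows in the last 200 bases of its transcript, 68.2% also lie in an exon of an antisense RNA gene, Gm26631. That gene has no row in the deposited gene table. Without a stated annotation and strand setting the counts of Cox5a remain uncertain, and an effect of the overlap was not tested.

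Ndufa4 (chromosome 6, 11900292 to 11907497, - strand) was the only one of the 87 genes whose 4 injury libraries all lay above its 4 naive libraries. It had 254, 242, 262 and 263 CPM in injury libraries and 230.3, 225, 220.4 and 238 CPM in naive libraries. The fold change was 1.12 (95% interval 1.03 to 1.21), with an edgeR adjusted p of 0.0722, and 0.0482 with the repeat block. It was called in 3 of 17 alternatives, with adjusted p from 0.0422 to 0.253. Groups that did not overlap were found for 5 of the 87 genes, 1 higher and 4 lower (Uqcrfs1, Uqcr11, Ndufaf6 and Ndufaf7), against 16.8% of all genes tested. Cox6c, the complex IV gene with the highest tag level, averaged 794 ± 29.3 CPM in injury libraries and 782 ± 35.6 CPM in naive libraries. Its groups overlapped.

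**Figure D4:**
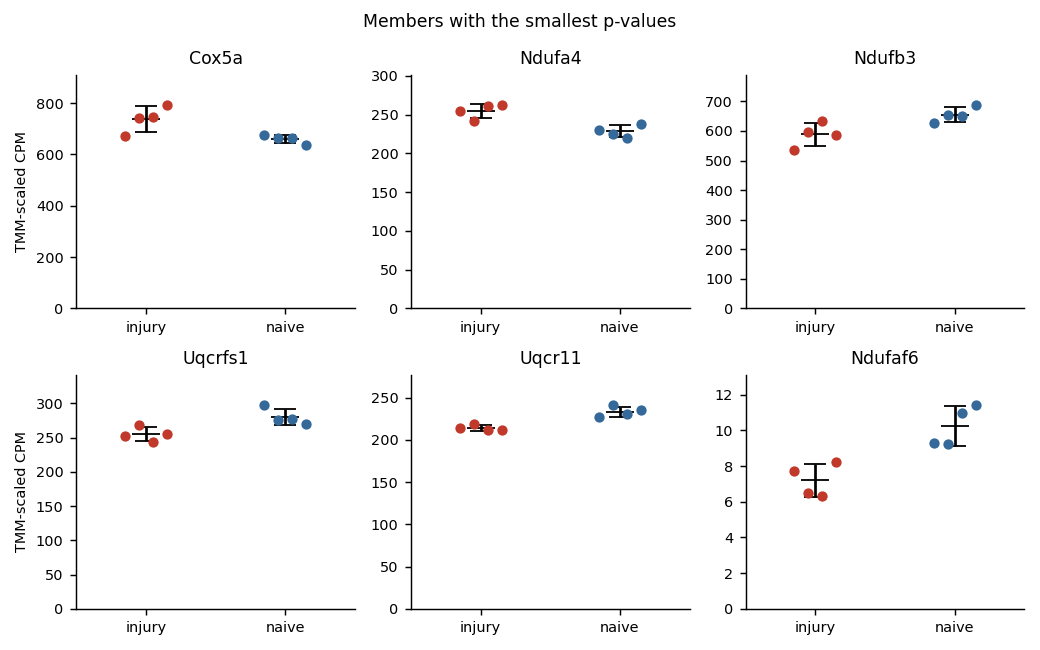
TMM-scaled CPM in each library for the genes with the smallest p-values in complexes I, III and IV and among the assembly factors (Uqcr11 and Ndufa4 added after their values were seen), injury left and naive right, with mean and SD (n = 4 each); y axes start at 0. Cox5a and Ndufa4 average 1.12-fold higher after injury, and the other genes 0.70-fold to 0.92-fold of the naive level.

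In the plot of single libraries, the groups of Ndufa4, Uqcrfs1, Uqcr11 and Ndufaf6 do not overlap, those of Uqcrfs1 by a narrow gap, and those of Cox5a and Ndufb3 overlap by a single injury library.

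Several complex IV subunits exist in tissue-specific forms. In 5 pairs, the form known from heart, skeletal muscle or other tissues was a small part of its pair in DRG of both sides. Cox7a1, the muscle form, made up 0.691% of the counts of Cox7a1 plus Cox7a2 in injury libraries and 0.721% in naive libraries. Cox4i2, which replaces Cox4i1 in lung, made up at most 0.113% of its pair in any library. Cox6a2, the muscle partner of Cox6a1, reached at most 0.236%, Cox6b2, known from testis, at most 0.613%, and Ndufa4l2 at most 0.564%. In none of these 5 pairs did the minor form reach 1% in any library. The major forms were at like levels: Cox4i1 averaged 377 ± 13.2 CPM in injury libraries and 360.0 ± 9.09 CPM in naive libraries, and Cox6a1 averaged 452 ± 17.9 CPM in injury libraries and 428 ± 13.7 CPM in naive libraries. Cox6b1 averaged 557 ± 14.4 CPM after injury and 571 ± 24.9 CPM in naive libraries. Cox7a2 averaged 614 ± 24.6 CPM in injury libraries and 606 ± 17.5 CPM in naive libraries. Its relative Cox7a2l, which takes part in joining complexes III and IV, averaged 349 ± 16.8 CPM after injury and 364 ± 5.0 CPM in naive libraries. No share is given for the pair Cox8a and Cox8b, since both were near the floor, with 152 and 14 counts over all libraries. In naive replicate 2, Cox8b had 6 counts and Cox8a 5.

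Complex V, the ATP synthase, has a catalytic head driven by a rotating ring of c subunits. All 15 of its genes were tested, 9 with a positive and 6 with a negative log2 fold change, none called by edgeR. The mouse has 3 genes for the same mature c subunit, and Atp5g3 had the highest tag level of the 93 genes. It had 2700.1, 2788, 2390.0 and 2551 CPM in injury libraries and 2757, 2859.7, 2535 and 2611 CPM in naive libraries, a fold change of 0.97 (95% interval 0.90 to 1.04). In both groups replicates 1 and 2 were higher than replicates 3 and 4. Atp5g3 made up 92.2 ± 0.843% of the counts of the 3 c-subunit genes in injury libraries and 92.7 ± 0.833% in naive libraries. Atp5g1 made up 7.55 ± 0.825% in injury libraries and 7.06 ± 0.809% in naive libraries. The mix of c-subunit transcripts thus differed by less than its SD within a group.

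In the catalytic head of complex V, Atp5a1, the alpha subunit, averaged 767 ± 11.5 CPM in injury libraries and 797 ± 19.2 CPM in naive libraries. Atp5b, the catalytic beta subunit, averaged 780.2 ± 28.9 CPM in injury libraries and 764 ± 16.4 CPM in naive libraries. Atp5c1, the gamma subunit of the rotating shaft, had the smallest p of the complex, with 164, 169.5, 179 and 178 CPM after injury and 206, 174, 191 and 178 CPM in naive libraries. Its groups overlapped, its fold change was 0.92 (95% interval 0.84 to 1.01), and its edgeR adjusted p was 0.293. Over 17 alternatives its log2 fold change ran from -0.17 to -0.04. In the peripheral stalk, Atp5f1 averaged 26.4 ± 3.73 CPM in injury libraries and 23.3 ± 3.21 CPM in naive libraries, a fold change of 1.13 (95% interval 0.94 to 1.37). Atp5j, also of that stalk, averaged 4.77 ± 1.34 CPM in injury libraries and 3.63 ± 0.598 CPM in naive libraries, with the largest fold change of the complex, 1.32 (95% interval 0.88 to 1.97). The groups of both genes overlapped. Atp5a1, Atp5b, Atp5f1 and Atp5j were chosen as examples after their values were seen.

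The assembly factors build the complexes and are not part of the finished enzymes. Atp5s, the ATP synthase relative, was grouped with them. All 9 genes of this group were tested at levels below 100 CPM, 2 with a positive and 7 with a negative log2 fold change, and none was called by edgeR. Ndufaf6 (chromosome 4, 11051045 to 11076205, - strand), needed early in complex I assembly, had 7.70, 6.52, 6.32 and 8.24 CPM in injury libraries and 9.29, 9.24, 11.0 and 11.4 CPM in naive libraries. The groups did not overlap, the fold change was 0.70 (95% interval 0.54 to 0.92), log2 -0.51 ± 0.19 (SE), and the edgeR adjusted p was 0.0799. It was called lower in 2 of 17 alternatives, with DESeq2 and with library totals. Ndufaf4, which works on the membrane-facing part of the matrix arm, pointed the other way, with 47.7, 60.5, 58.7 and 67.0 CPM in injury libraries and 54.9, 50.5, 54.4 and 37.3 CPM in naive libraries. Its fold change was 1.19 (95% interval 1.00 to 1.41), with an edgeR adjusted p of 0.20. It was called when both libraries numbered 1 were left out, with an adjusted p of 0.0234 without and 0.0163 with the block.

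Ndufaf3, which acts together with Ndufaf4, did not share its direction. It averaged 21.1 ± 1.75 CPM in injury libraries and 25.3 ± 3.33 CPM in naive libraries, overlapping, with an edgeR adjusted p of 0.191. Ndufaf7, a methyltransferase needed for complex I assembly, averaged 38.0 ± 2.18 CPM in injury libraries and 43.3 ± 1.43 CPM in naive libraries, without overlap, with an adjusted p of 0.224. Ndufaf3, Ndufaf4 and Ndufaf7 were picked for description after their values were seen. Where 12.6% of all genes tested were called, another 7 complex I assembly factors outside the selection, such as Nubpl and Foxred1, gave 0 calls. The 29 tested assembly factors of complexes II to V gave 0 calls too. Among the latter list, Sco2, a copper carrier for complex IV, had the smallest p, with 17.0 ± 1.81 CPM after injury and 12.9 ± 2.01 CPM in naive libraries (edgeR adjusted p 0.0921).

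**Figure D5:**
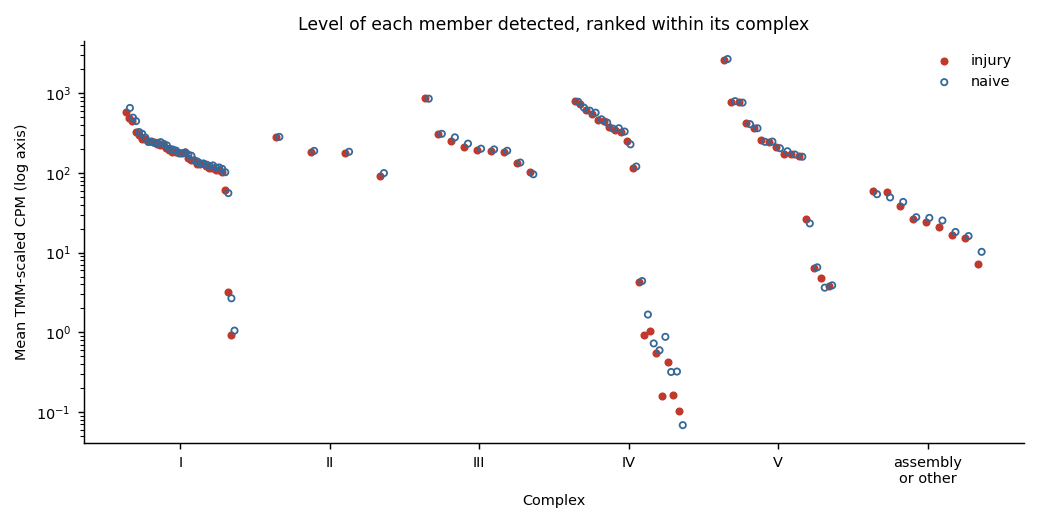
Mean TMM-scaled CPM (log axis) of each member detected, ranked within its complex, with injury as filled red points and naive as open blue points. Most structural subunits lie above 100 CPM in both groups, and a tail below 7 CPM in complexes I, IV and V falls apart from the rest.

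Levels within a complex varied widely, as the plot of ranked levels shows. Of the 93 genes, 66 averaged at least 100 CPM, and 15 averaged under 7 CPM, a limit set after seeing the gap. The low rows included 8 tissue forms of complex IV, but also Cox8a, Ndufs5, Ndufb11, Ndufab1, Atp5j, Atp5l and Atp5g2, several of them parts of every respiratory chain. Ndufs5 and Cox8c were listed at 0 in all 8 libraries, and Cox4i2, Cox6a2, Cox7b2 and Cox8b had too few counts to be tested. Cox8a averaged 1.03 ± 0.261 CPM in injury libraries and 0.725 ± 0.391 CPM in naive libraries. Cox8b had 14 counts in all 8 libraries together.

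A level near 0 in this table does not show that a transcript was absent, since a tag counts only where the annotation used by the authors reaches the transcript end. In GENCODE M21, 71 of the 93 genes shared no 50-base window of their last 200 bases with a transcript of another gene. For 9 genes at least 50% of these windows were shared, among them Cox5a, Atp5g2 and Atp5l. Another of the 9 was Atp5o, a name borne by 2 GENCODE genes. The end used for it was shared with Donson and may not be that of the gene counted here. The 9 had a median level of 180.0 CPM, and 2 of them lay under 7 CPM. The other 84 had a median of 179 CPM and 13 low rows, which include the tissue forms of complex IV. Whether shared ends account for low rows was not tested. Cox8a and Ndufab1, both low, shared no window. For Ndufs5, 24.5% of windows were shared with BC002163, a row with 1307 counts in injury and 1097 counts in naive libraries. The low rows enter the sums above but hold a small part of them.

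The transcription factors and cofactors known to regulate respiratory genes had mostly negative fold changes without reaching the threshold in the unblocked edgeR fit. Of 16 tested, 12 had a negative log2 fold change, with a median of -0.16, and 0 were called by edgeR. At an unadjusted p under 0.05 there were 4, all lower, a share near the 24.6% of all genes tested. Esrrg, an estrogen-related receptor known to drive oxidative genes in muscle and heart, had 11.2, 19.9, 16.8 and 22 CPM in injury libraries and 20.8, 27.0, 23.3 and 27.3 CPM in naive libraries. Its groups overlapped by injury replicate 4, its fold change was 0.71 (95% interval 0.56 to 0.90), and its edgeR adjusted p was 0.0510. That p was 0.00817 with the repeat block, 0.0336 without naive replicate 1 and 0.129 without injury replicate 1. In the last fit its log2 fold change was -0.33, against -0.50 with all libraries. Esrrg was called in 10 of 17 alternatives, with adjusted p from 0.00817 to 0.142. Its relatives Esrrb and Esrra had fold changes of 0.49 and 0.84 with adjusted p of 0.0550 and 0.133, and Ppargc1a, the coactivator PGC-1 alpha, one of 0.84 with an adjusted p of 0.119. Esrrb averaged 1.88 ± 0.442 CPM in injury libraries and 3.83 ± 1.06 CPM in naive libraries, so its fold rests on low counts.

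The other mitochondrial lists gave 1 call. Tomm70a, an import receptor of the outer membrane, fell after injury. It was the only one of 20 tested import genes to pass, where 12.6% of all genes tested passed. It had 292, 282, 276 and 270.0 CPM in injury libraries and 343, 321, 308 and 302 CPM in naive libraries, with no overlap, a fold change of 0.88 (95% interval 0.81 to 0.96) and an edgeR adjusted p of 0.0340. With the repeat block the adjusted p was 0.0138. In the unblocked fit the call was lost without naive replicate 1 (0.120), naive replicate 2 (0.0814), injury replicate 2 (0.0680), injury replicate 3 (0.0520) or injury replicate 4 (0.0919), and without both libraries numbered 1 (0.0610, against 0.0349 with the block). Over all 17 alternatives its log2 fold change ran from -0.24 to -0.14. None of 18 genes of the tricarboxylic acid cycle was called by edgeR, against 12.6% of all genes tested. At an unadjusted p under 0.05 there were 0, against 24.6% of all genes tested, and their median log2 fold change was -0.00. Cycs, the cytochrome c that shuttles between complexes III and IV, averaged 59.3 ± 8.13 CPM in injury libraries and 52.4 ± 3.38 CPM in naive libraries. Atpif1, the inhibitor of the ATP synthase, averaged 535 ± 28.2 CPM in injury libraries and 555.3 ± 16.1 CPM in naive libraries. Neither was called, nor were the other 4 tested genes of their list.

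Cell composition bears on any level measured in ganglia of mixed cells, so marker sums are set beside these results. Summed satellite glia markers lay at 1333 to 1531 CPM in injury libraries and 1221 to 1577 CPM in naive libraries, and Schwann cell markers at 698 to 894 CPM in injury libraries and 715 to 1073 CPM in naive libraries. Endothelial markers lay at 99.9 to 162 CPM in injury libraries and 92.7 to 128 CPM in naive libraries. Macrophage markers lay at 9.45 to 16.7 CPM in injury libraries and 7.28 to 12.7 CPM in naive libraries. All these ranges overlapped between the groups, as did that of the 7 neuron markers. Mural, skeletal muscle and adipocyte markers overlapped too and summed to at most 32.8 CPM in any library, and 3 of 5 erythroid markers were at 0. Within the lists, Isl1, a sensory neuron transcription factor, was lower after injury (0.77-fold, edgeR adjusted p 0.00212), Glul, the glutamine synthetase of satellite glia, was higher (1.41-fold, 6.37e-07), and Ednrb was lower (0.77-fold, 0.0252). Their part in the OXPHOS values was not tested.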

How the data were processed

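RNA was purified and made into QuantSeq 3′ mRNA REV libraries, per the labels' protocols. The authors deposited raw whole-number counts per gene symbol and library; bcl2fastq 2.17, STAR and HTSeq were used with GRCm38 (mm10), per the submitters' processing notes, and the sources used here do not give the annotation, strand setting or other versions. Rows whose symbol had turned into a date (27, holding 0.146% to 0.158% of counts) were left out; 24033 rows remained, 6722 without a count in any library.

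Counts were tested with edgeR 4.0.16 (R 4.3.3; filterByExpr, TMM, robust quasi-likelihood F-test, Benjamini-Hochberg over 13639 genes, adjusted p under 0.05), injury against naive, without covariates; the biological coefficient of variation was 17.1%. CPM values were TMM-scaled; SE is the size of log2 fold change over the square root of F, and intervals are 95%. Group-wise SDs are over 4 libraries. Alternatives used DESeq2 1.42.0, limma 3.58.1 (voom), other scalings and filters, and left-out libraries. Scripts were tested on simulated data. Positions came from GENCODE M21, and promoters from a RefSeq table of GRCm38.p6; Python 3.11.15, pandas 2.3.3 and matplotlib 3.10.9 did the rest.

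The design text says each repeat holds both sides of the same mice, so the replicate numbers were taken to pair the libraries. Same-numbered libraries' deviations from group means correlated at 0.130, 0.122, 0.0664 and 0.0573 over 10113 genes averaging at least 5 CPM. Libraries of unlike number correlated at -0.128 to 0.103. The highest of these was injury replicate 3 with naive replicate 4, above the same-numbered values of replicates 3 and 4. The correlations therefore do not settle how replicates 3 and 4 pair. Libraries within a group were distinct (chi-square per degree of freedom 8.09 to 19.2). Counts without molecular identifiers are not independent molecules.

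Genes and lists were chosen with earlier results of these data known. Genes named were every called member, the most abundant and the smallest-p member of each complex, Sdha to Sdhd, Cyc1, the tissue-form and c-subunit genes, and up to 4 smallest-p genes per list; others are marked where they are named. For 1 complex I gene no values of its own are reported here; it stays in the counts and sums.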

Additional observations from a re-analysis of the deposited data

Results flagged for a closer look

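Among 220 groups of 4 libraries checked for 105 genes, 8 held a library far from the other 3, and chance flags about 1 in 20 groups. Ndufb4 had 175 CPM in naive replicate 3, below 195 to 197 CPM in the other naive libraries. Ndufv3 had 129 CPM in injury replicate 3, above 111 to 113 CPM in the other injury libraries, and Uqcrb had 201 CPM in injury replicate 2, above 187 to 189 CPM. Cox7a2l had 374 CPM in injury replicate 1, above 339 to 343 CPM in the other injury libraries. Ndufaf5, which modifies Ndufs7, had 41.4 CPM in naive replicate 1, below 57.2 to 60.3 CPM in the other naive libraries. Ndufaf7 had 41.3 CPM in injury replicate 3, above 36.8 to 37.3 CPM. Of the marker genes, Isl1 had 113 CPM in naive replicate 2, below 122 to 124 CPM, and Ednrb had 49.7 CPM in injury replicate 4, above 38.3 to 39.96 CPM.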

How the results depend on the processing

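The count of OXPHOS genes called higher, 0 with edgeR, was 2 with the replicate block, 2 with DESeq2, 1 with limma-voom and 2 when both libraries numbered 1 were left out. Leaving out 1 library at a time gave 0 to 1. With the replicate block and both of these libraries left out, an alternative added after seeing the data, it was 3. The count called lower, also 0, was 1 with the replicate block, 4 with library totals, 1 among genes averaging at least 5 CPM, 2 with DESeq2 and 1 with limma-voom, and leaving out 1 library at a time gave 0 to 1. Over all genes, 609 were lower with TMM and 1001 with library totals, and the other counts of all genes stayed within 1.5 times. The cause of these differences was not tested. Of 1776 values for 105 genes under the alternatives, 0 called values changed sign, 12 calls were lost and 38 gained, and 116 uncalled values changed sign. With all 8 libraries, the replicate block changed no call of a gene printed other than those of Cox5a, Ndufa4, Ndufb3 and Esrrg.

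With 4 libraries per group, the intervals still allow changes of up to 1.2-fold for most abundant OXPHOS genes and more for the low rows. Transcript levels do not give protein or respiratory activity.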
